A study of Homo sapiens with 12 samples.

Results

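The interferon-inducible restriction factors IFITM1, IFITM2, IFITM3, tetherin (gene BST2), MX1, MX2 and viperin (gene RSAD2) were followed by RNA-seq in HT1080 cells, an established human fibrosarcoma line that carries a mutant NRAS oncogene. They were found by their gene symbols, and all 7 had exactly 1 entry among the 55243 symbols that stood once in the deposited table. The 12 libraries form 4 groups of 3. These are siQ61K with poly(dA:dT), siNC with poly(dA:dT), siQ61K with DMSO, and siNC with DMSO. siQ61K is an siRNA against mutant NRAS, siNC is the control siRNA, and poly(dA:dT) is a synthetic double-stranded DNA that activates cytosolic DNA sensing. All groups are 1 cell line that received an siRNA, and the labels name 1 siRNA against NRAS and no delivery control for the DNA, so loss of NRAS cannot be told apart from anything else that this siRNA does, nor can the DNA be told apart from its delivery. The study asked how knockdown of mutant NRAS bears on the interferon-alpha response of these cells.

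Restriction factors are cell proteins that block single steps of a virus's life cycle, and interferon raises many of them through the JAK kinases and the transcription factor complex ISGF3. The IFITM proteins sit in plasma and endosomal membranes and hinder the fusion of enveloped viruses with the cell. Tetherin holds budding particles at the cell surface, MX1 and MX2 are dynamin-like GTPases that bind incoming viral nucleoprotein or capsids, and viperin makes a chain-terminating nucleotide that stops viral RNA synthesis. Some IFITM genes are also commonly expressed in cultured cells without added interferon.

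ISGF3 binds the interferon-stimulated response element, and the RefSeq promoter windows of the members (build GRCh38.p14, 250 bases before each start site and the first transcribed bases) show the letters of its core. The search used GAAA, any 2 bases and GAAA again, on both strands. IFITM2 and MX2 have no window in the table. The 5 other members have 8 windows, and 6 of these windows, at least 1 for each of the 5 genes, hold a match, against 3.57% of all 35116 promoter windows. The sequences below are the windows with a match that are described further, 5′ to 3′ on the strand of the gene, with matches to the core, on either strand, in capitals.
IFITM1, chr11:313790-314043, plus strand: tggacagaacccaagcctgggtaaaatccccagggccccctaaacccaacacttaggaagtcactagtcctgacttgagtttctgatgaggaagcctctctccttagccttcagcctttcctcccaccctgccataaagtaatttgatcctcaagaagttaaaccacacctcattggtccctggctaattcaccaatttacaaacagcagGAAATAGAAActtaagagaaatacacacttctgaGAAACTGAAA
IFITM3, chr11:320861-321110, minus strand: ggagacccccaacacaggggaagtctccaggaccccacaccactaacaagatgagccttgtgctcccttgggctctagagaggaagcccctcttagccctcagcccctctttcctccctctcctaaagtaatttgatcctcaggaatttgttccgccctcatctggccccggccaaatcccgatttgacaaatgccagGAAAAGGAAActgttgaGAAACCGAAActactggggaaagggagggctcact
BST2, chr19:17405631-17405880, minus strand: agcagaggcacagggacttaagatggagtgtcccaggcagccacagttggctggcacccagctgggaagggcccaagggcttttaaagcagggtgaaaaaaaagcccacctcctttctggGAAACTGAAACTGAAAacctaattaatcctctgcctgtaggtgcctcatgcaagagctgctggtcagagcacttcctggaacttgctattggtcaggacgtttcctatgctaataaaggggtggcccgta
MX1, chr21:41420308-41420578, plus strand: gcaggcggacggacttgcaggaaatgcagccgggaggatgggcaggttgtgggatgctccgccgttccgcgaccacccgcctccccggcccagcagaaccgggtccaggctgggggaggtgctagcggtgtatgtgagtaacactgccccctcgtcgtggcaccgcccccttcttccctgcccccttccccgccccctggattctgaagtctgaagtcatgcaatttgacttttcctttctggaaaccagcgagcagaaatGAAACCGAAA
RSAD2, chr2:6877527-6877776, plus strand: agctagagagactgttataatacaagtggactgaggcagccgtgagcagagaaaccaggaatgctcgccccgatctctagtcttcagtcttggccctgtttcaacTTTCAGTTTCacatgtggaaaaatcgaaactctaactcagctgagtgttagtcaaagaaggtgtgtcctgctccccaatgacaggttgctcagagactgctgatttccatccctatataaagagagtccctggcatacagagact

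Counting the first transcribed base as 0, the IFITM1 matches lie at -40 to -31 and at -6 to 3, across the start site, and the IFITM3 matches at -52 to -43 and -35 to -26. In BST2 a pair of matches overlaps, at -130 to -121 and -124 to -115, which gives 1 run of 3 GAAA blocks spaced by CT. The MX1 match lies past the start site, at 11 to 20, and the RSAD2 match is on the opposite strand at -145 to -136. MX1 has another window with a match on the opposite strand, at -196 to -187 from its own start site, and 1 further window each of MX1 and RSAD2 holds none. A longer form, the same letters followed by CT, is present in 0.273% of all windows and in those of IFITM1, IFITM3, BST2 and MX1.

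The gamma-activated sequence, searched as TTCNNNGAA on both strands, is in 7.66% of all windows. Among the members it is in windows of BST2, IFITM1 and MX1. The BST2 matches are at -136 to -128, where it overlaps the first core match, and at -58 to -50. In IFITM1 it lies at -12 to -4 and overlaps the match across the start site. These matches are descriptions of the letters. They are no measure of binding.

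**Figure D1:**
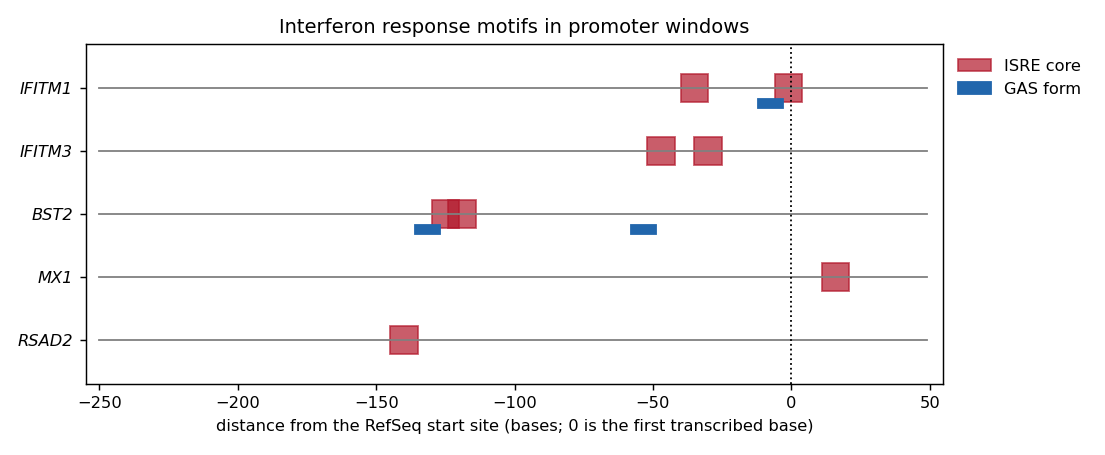
Positions of the letters GAAA, any 2 bases and GAAA (red, ISRE core) and TTCNNNGAA (blue, GAS form) on either strand of 1 RefSeq promoter window for each of 5 members, with distance from the start site in bases on the horizontal axis. The IFITM1 and IFITM3 matches lie near the start site, those of BST2 and RSAD2 lie farther upstream, and the MX1 match lies past the start site.

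Of the members' neighbours among coding genes, some are members themselves. IFITM2, IFITM1 and IFITM3 follow each other on chromosome 11, between IFITM5 and B4GALNT4. MX2 and MX1 are neighbours on chromosome 21, RSAD2 is next to CMPK2 on chromosome 2, and BST2 lies between CCDC194 and MVB12A on chromosome 19. The 250 bases before the start sites of IFITM1 and IFITM3 are 70.2% identical over their aligned bases.

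Values are the authors' TPM, a relative abundance per transcript length, so levels can be set side by side between genes. TPM keeps no depth, and the depth of each library is unknown. Tests were made with limma on log2(TPM + 1), with p-values of the 14722 genes that reached 1 TPM in 3 or more libraries adjusted by the Benjamini-Hochberg method over all of them together. A gene was called at an adjusted p below 0.05, and a log2 difference on this scale understates the change of a low gene. The labels do not say if replicates were separate cultures, so the p-values cover a spread that may be technical only. For every non-overlapping pair of groups below, the exact two-sided permutation test gave p = 0.1, the smallest that 3 libraries against 3 allow.

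The siRNA label was checked on NRAS, which was lower with siQ61K at both treatments. It had 21.3 ± 1.91 TPM in siQ61K poly(dA:dT) and 46.9 ± 4.47 TPM in siNC poly(dA:dT) libraries (SD, n = 3 each), and 16.9 ± 2.63 TPM in siQ61K DMSO against 53.9 ± 10.8 TPM in siNC DMSO libraries. The limma differences were -1.10 (adjusted p = 0.000426) and -1.61 (adjusted p = 2.54e-05), and TPM does not separate the mutant from the normal allele. Replicates of a group correlated at 0.966 to 0.984 across genes. The summed level of 10 fibroblast and mesenchymal markers was 5239 to 6062 TPM in siQ61K poly(dA:dT), 6958 to 7649 in siNC poly(dA:dT), 6079 to 8569 in siQ61K DMSO and 6568 to 7212 in siNC DMSO libraries. VIM, the intermediate filament vimentin, made up most of the sum, and without it the others summed to 511 to 614 TPM in siQ61K poly(dA:dT), 1044 to 1099 in siNC poly(dA:dT), 615 to 826 in siQ61K DMSO and 1001 to 1145 in siNC DMSO libraries. COL3A1 and THY1 were near 0. Both sums were thus lowest where most members were highest, and their part in the results was not tested. The 4 epithelial markers summed to 0.797 to 4.12 TPM and the 6 leukocyte markers to 0 to 1.29 TPM over the 12 libraries. Plasmacytoid dendritic cells have high tetherin, and their 4 markers summed to 3.64 to 9.61 TPM. TCF4, a transcription factor, gave that level, CLEC4C and GZMB were at 0 in all 12, and LILRA4 was at 0 except for 0.539 TPM in siQ61K DMSO replicate 3. Across genes, log2 differences followed the GC content of the transcript, with Spearman coefficients of -0.245 and 0.505 for siQ61K against siNC with poly(dA:dT) and with DMSO, -0.572 and 0.503 for poly(dA:dT) against DMSO under siQ61K and under siNC, and -0.656 for the interaction. The longest transcripts of the members had GC contents of 41.8% in RSAD2 and 48.8% to 57.3% in the others.

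IFITM3 was the most abundant member in each of the 4 groups. The lowest mean was that of MX2 in 3 groups and that of BST2 in siQ61K DMSO libraries, and in all 4 groups the values of the lowest member overlapped those of RSAD2. All members were highest in siQ61K poly(dA:dT) libraries by their means, but the size of the step differed from gene to gene. IFITM1, BST2, MX1, MX2 and RSAD2 stood well above their levels in the other groups there, whereas IFITM2 and IFITM3 were already abundant in siNC DMSO libraries and differed by smaller factors. In bulk RNA, more cells that express a gene and more of its RNA per cell cannot be told apart.

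**Figure D2:**
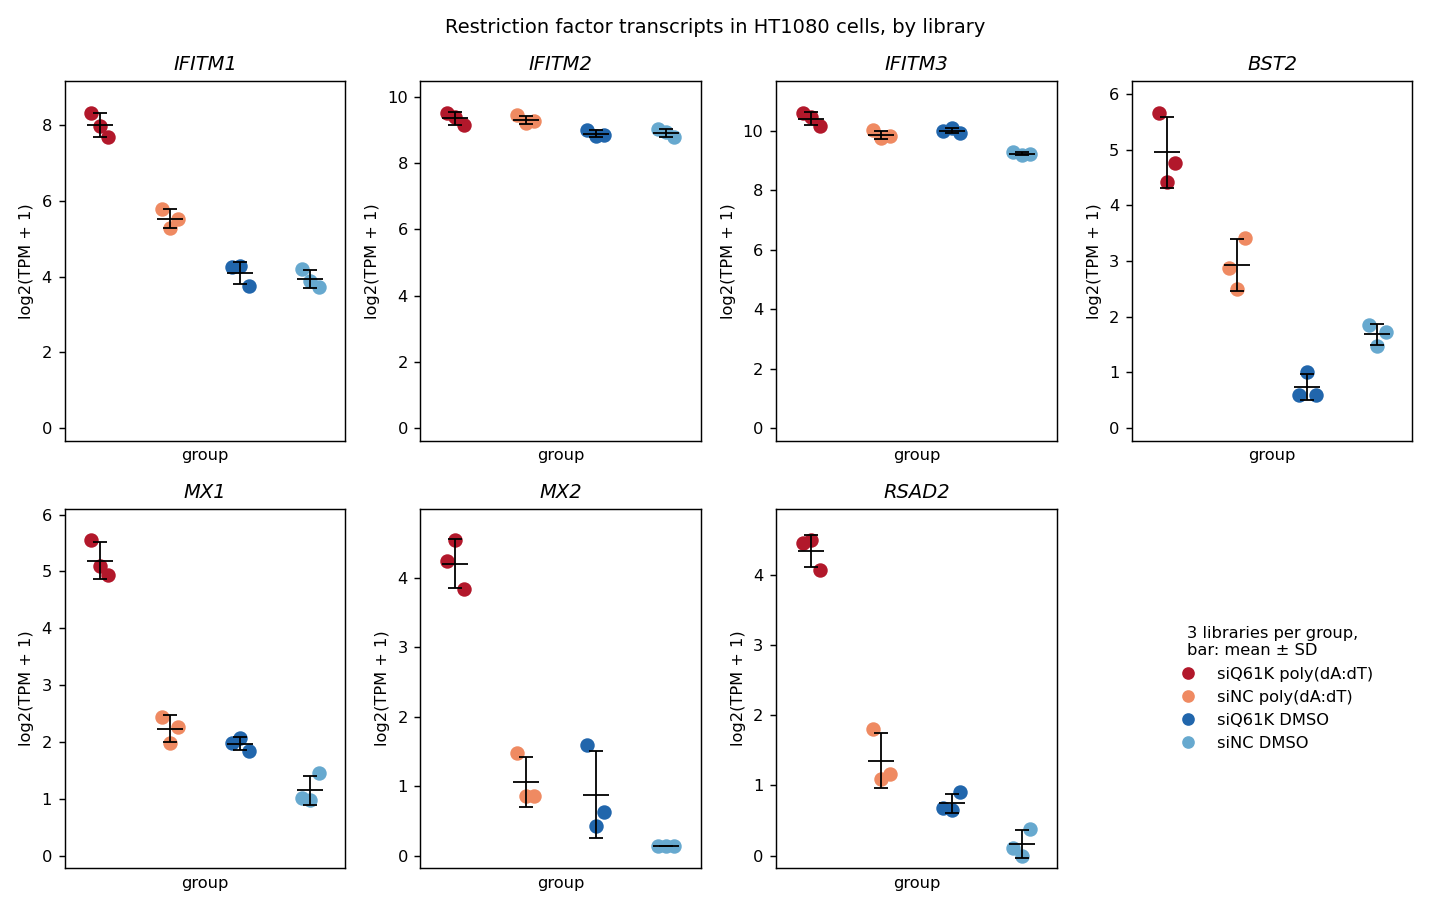
log2(TPM + 1) of each member in every library (points), with the mean and SD of each group of 3 (bars), siQ61K left of siNC within each treatment. The siQ61K poly(dA:dT) points lie above all other libraries for every member but IFITM2, whose siNC poly(dA:dT) points reach 696 TPM against a lowest siQ61K poly(dA:dT) value of 567 TPM.

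IFITM1, which acts mainly at the plasma membrane, changed most within its family. It had 322, 251 and 206 TPM in the siQ61K poly(dA:dT) libraries, 54.4, 38.0 and 44.9 TPM in siNC poly(dA:dT), 18.1, 18.3 and 12.5 TPM in siQ61K DMSO, and 17.4, 13.9 and 12.3 TPM in siNC DMSO. The groups with DMSO overlapped each other, and each of the other steps was free of overlap. With poly(dA:dT) the log2 difference of siQ61K minus siNC was 2.47 (SE 0.20, adjusted p = 3.75e-06), and with DMSO it was 0.15 (SE 0.20, adjusted p = 0.612). Among the tested genes, 96.7% had a lower mean than IFITM1 in siQ61K poly(dA:dT) libraries and 53.2% in siNC DMSO libraries.

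IFITM3 acts in endosomes on viruses such as influenza A. Its values were 1556, 1403 and 1136 TPM in siQ61K poly(dA:dT), 1035, 856 and 901 TPM in siNC poly(dA:dT), 1002, 1082 and 974 TPM in siQ61K DMSO, and 617, 580.1 and 594 TPM in siNC DMSO libraries. The siQ61K libraries were above the siNC libraries at both treatments, and siQ61K DMSO overlapped siNC poly(dA:dT). The log2 difference of siQ61K minus siNC was 0.54 with poly(dA:dT) (SE 0.11, adjusted p = 0.00476) and 0.77 with DMSO (SE 0.11, adjusted p = 0.000392). In every group at least 98.6% of tested genes had a lower mean.

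IFITM2, also an endosomal member, had 737, 673 and 567 TPM in siQ61K poly(dA:dT), 696, 587 and 622 TPM in siNC poly(dA:dT), 512, 451 and 461 TPM in siQ61K DMSO, and 522, 493 and 441 TPM in siNC DMSO libraries. The siRNA groups overlapped at both treatments, and the poly(dA:dT) libraries lay above the DMSO libraries under both siRNAs. Neither siRNA difference was called, at 0.05 with poly(dA:dT) (SE 0.11, adjusted p = 0.799) and -0.03 with DMSO (SE 0.11, adjusted p = 0.863), and both change sign when certain single libraries are left out.

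The 3 IFITM transcripts share sequence, and reads of one can be assigned to another, so their individual values carry that uncertainty. Of the 31-base words in annotated coding transcripts, 36.6% of those of IFITM1, 37.2% of those of IFITM2 and 24.0% of those of IFITM3 occur in at least 1 of the other 2 genes, against 0.88% of MX1 words in MX2. TPM is taken per transcript length, and the longest transcripts of IFITM1, IFITM2 and IFITM3 have 855, 892 and 808 bases. Summed TPM of the 3 genes depends less on how reads are split than the single values do, but is not free of it. It was 2284 ± 355 in siQ61K poly(dA:dT), 1611 ± 156 in siNC poly(dA:dT), 1510.1 ± 54.9 in siQ61K DMSO and 1097 ± 55.4 in siNC DMSO libraries (SD, n = 3 each). The sum rose with siQ61K by 0.50 with poly(dA:dT) (SE 0.11, adjusted p = 0.00783) and by 0.46 with DMSO (adjusted p = 0.00824) on the log2 scale.

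The make-up of the sum differed between groups. IFITM1 supplied 11.3% ± 0.885 of it in siQ61K poly(dA:dT), 2.83% ± 0.243 in siNC poly(dA:dT), 1.07% ± 0.185 in siQ61K DMSO and 1.32% ± 0.166 in siNC DMSO libraries (SD, n = 3 each). IFITM3 supplied 67.5% ± 2.19 in siQ61K DMSO against 54.5% ± 1.95 in siNC DMSO libraries, and IFITM2 31.4% ± 2.21 against 44.2% ± 1.83 in the same groups. The groups do not overlap in any of these share differences except that of IFITM1 between siQ61K DMSO and siNC DMSO (exact two-sided permutation p = 0.3).

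**Figure D3:**
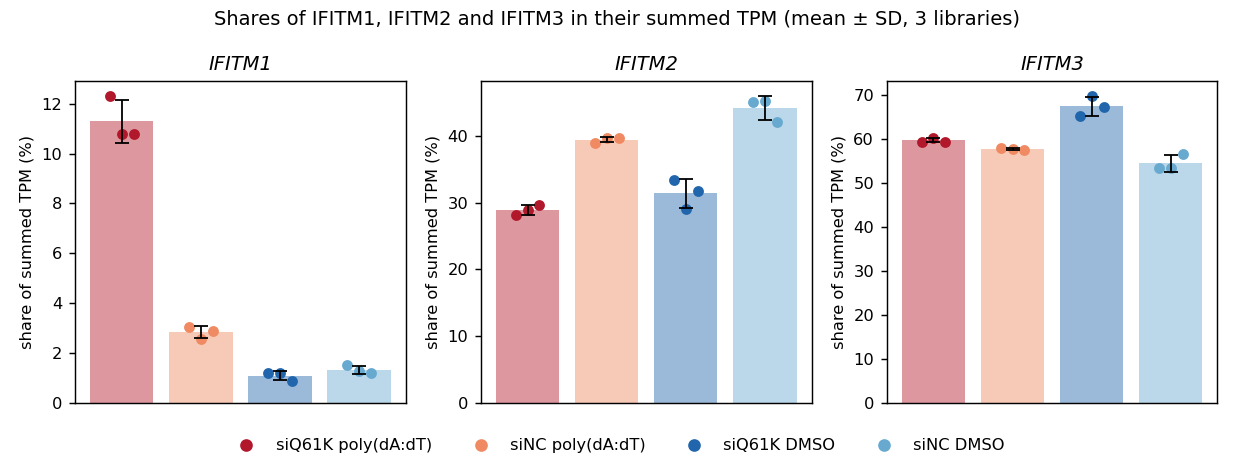
Share of IFITM1, IFITM2 and IFITM3 in their summed TPM (percent) per library (points), with group means and SD of 3 libraries (bars). The IFITM1 share is 11.3% in siQ61K poly(dA:dT) libraries and at most 2.83% in the mean of any other group, and the IFITM2 share is lower with siQ61K than with siNC at both treatments.

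Tetherin was the one member called in opposite directions with siQ61K at the 2 treatments. BST2 had 49.7, 20.4 and 26.1 TPM in siQ61K poly(dA:dT), 6.31, 4.65 and 9.66 TPM in siNC poly(dA:dT), 0.514, 0.997 and 0.503 TPM in siQ61K DMSO, and 2.59, 1.78 and 2.32 TPM in siNC DMSO libraries. No pair of groups overlapped, with siQ61K DMSO the lowest and siQ61K poly(dA:dT) the highest. With poly(dA:dT) it rose with siQ61K by 2.02 on the log2 scale (SE 0.30, adjusted p = 0.000560), and with DMSO it fell by 0.96 (SE 0.30, adjusted p = 0.0302). The fall with DMSO is near the threshold at levels close to 1 TPM. It was no longer called without siNC DMSO replicate 1 (adjusted p = 0.0979) or 3 (0.0646), without siQ61K DMSO replicate 1 (0.0896) or 3 (0.0757), with no filter on low values (0.0930), or with a pseudocount of 5, where the difference was -0.35 (adjusted p = 0.265).

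MX1, which blocks influenza and other negative-strand viruses in the cytoplasm, had 45.8, 33.0 and 29.5 TPM in siQ61K poly(dA:dT), 4.45, 2.95 and 3.83 TPM in siNC poly(dA:dT), 2.96, 3.20 and 2.60 TPM in siQ61K DMSO, and 1.03, 0.983 and 1.73 TPM in siNC DMSO libraries. Every siQ61K library was above every siNC library at the same treatment, and siQ61K DMSO overlapped siNC poly(dA:dT). MX1 rose with siQ61K by 2.96 with poly(dA:dT) (SE 0.21, adjusted p = 1.11e-06) and by 0.82 with DMSO (SE 0.21, adjusted p = 0.00992) on the log2 scale. With a pseudocount of 5 the difference with DMSO was 0.34 and was not called (adjusted p = 0.0723).

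MX2, which acts on HIV-1 capsids at the nuclear pore, had 17.9, 22.3 and 13.3 TPM in siQ61K poly(dA:dT), 1.78, 0.817 and 0.806 TPM in siNC poly(dA:dT), 2.01, 0.339 and 0.540 TPM in siQ61K DMSO, and 0.0979, 0.0993 and 0.105 TPM in siNC DMSO libraries. The siQ61K DMSO libraries spread widely, their highest lying above every siNC poly(dA:dT) library and their others below all of them. The log2 difference of siQ61K minus siNC was 3.14 with poly(dA:dT) (SE 0.31, adjusted p = 1.77e-05) and 0.74 with DMSO (SE 0.31, adjusted p = 0.0857). With a pseudocount of 0.1 the difference with DMSO was 2.06 and was called (adjusted p = 0.0123), as it was without siQ61K DMSO replicate 2 (0.97, adjusted p = 0.0480). Without siQ61K DMSO replicate 1, the highest of its group, it was 0.38 (adjusted p = 0.356).

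RSAD2 had 20.8, 21.5 and 15.8 TPM in siQ61K poly(dA:dT), 2.49, 1.14 and 1.23 TPM in siNC poly(dA:dT), 0.604, 0.565 and 0.872 TPM in siQ61K DMSO, and 0.0797, 0 and 0.306 TPM in siNC DMSO libraries. No pair of groups overlapped, and 1 siNC DMSO library listed the gene at 0. The log2 difference of siQ61K minus siNC was 2.98 with poly(dA:dT) (SE 0.24, adjusted p = 3.11e-06) and 0.58 with DMSO (SE 0.24, adjusted p = 0.0789). The difference with DMSO was called with a pseudocount of 0.1 (1.99, adjusted p = 0.00954) and after a correction for GC content and length (0.79, adjusted p = 0.0378). With the replicate block added to that correction it was not called.

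CMPK2, the neighbour of RSAD2, encodes a nucleotide kinase that makes CTP, the substrate of viperin. It had 11.3, 13.5 and 9.56 TPM in siQ61K poly(dA:dT), 3.23, 1.93 and 2.69 TPM in siNC poly(dA:dT), 0.813, 0.863 and 1.14 TPM in siQ61K DMSO, and 1.40, 2.29 and 0.820 TPM in siNC DMSO libraries. With poly(dA:dT) it rose with siQ61K by 1.79 (SE 0.24, adjusted p = 0.000233), and with DMSO the groups overlapped at a difference of -0.33 (adjusted p = 0.324).

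Over the members, siQ61K with poly(dA:dT) gave 6 of 7 called higher and none lower, against 8.71% higher and 12.6% lower over all genes tested, and IFITM2 was the one not called. Values were higher without overlap for 6 members, and for 15.6% of all genes. Of all genes called, 40.78% were higher, and 51.31% were under median-of-ratios scaling, while the member count was 6 under each scaling. The members' median log2 difference was 2.47, and that of all genes was -0.07. With DMSO, IFITM3 and MX1 were called higher and BST2 lower, against 16.6% and 14.8% of all genes, with a median of 0.58 beside 0.01 for all genes. Values lay higher without overlap for 4 members, against 25.4% of all genes, and lower for BST2, against 20.4%. With DMSO the members called, 2 higher and 1 lower of 7, are too few to set apart from the shares called over all genes. The comparisons share libraries, and their values stand side by side as each comparison's own. These counts are descriptions, since some members entered the tests through the groups where they are high. RSAD2 reached 1 TPM only in the 6 poly(dA:dT) libraries, MX2 in 5 libraries, 3 of them siQ61K poly(dA:dT), and BST2 in all but the siQ61K DMSO libraries.

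**Figure D4:**
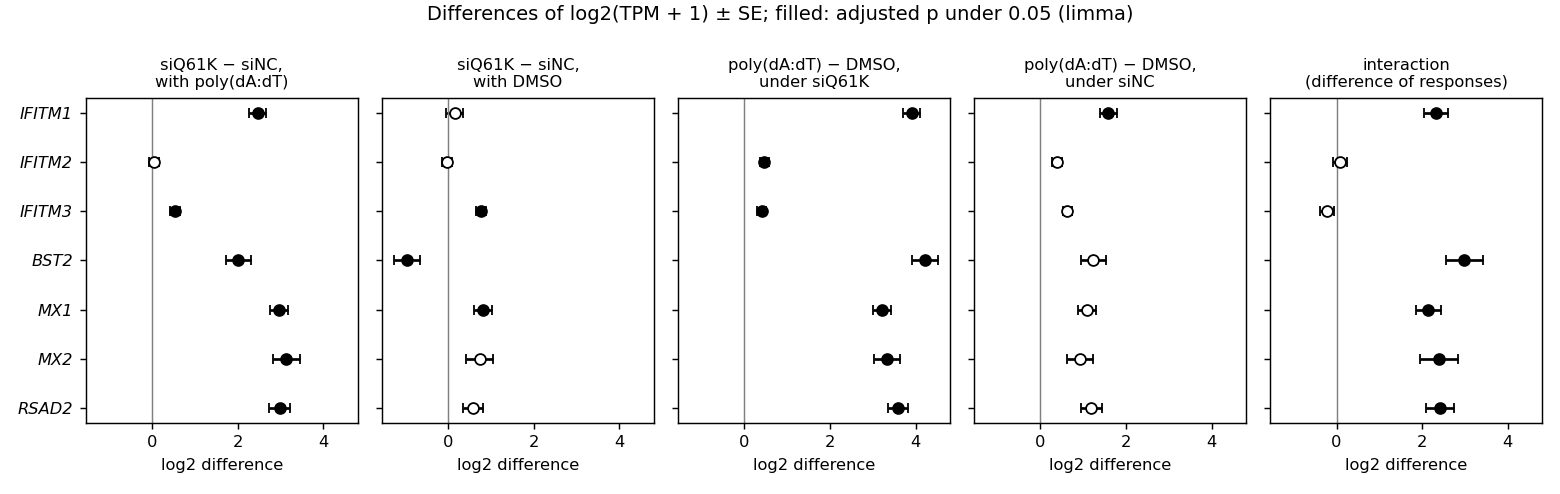
Differences of log2(TPM + 1) with their standard errors for each member (rows) in the 5 comparisons (panels), filled where the adjusted p was below 0.05. Filled points stand for 6 of 7 members for siQ61K minus siNC with poly(dA:dT), 3 with DMSO, 7 for poly(dA:dT) minus DMSO under siQ61K, 1 under siNC and 5 for the interaction.

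Poly(dA:dT) under siQ61K raised all 7 members, against 6.92% of all genes called higher and 18.3% called lower. All 7 were also higher without overlap, where 11.7% of all genes were higher and 27.6% lower in that way. The counts here and in the comparisons that follow are descriptions too. RSAD2 passed the filter through poly(dA:dT) libraries alone, and MX2 would not have passed it without those of siQ61K. Of all genes called here 27.45% were higher, against 52.59% under median-of-ratios scaling, where the median log2 difference of all genes was -0.01 in place of -0.15, and all 7 members were called under that scaling too. The log2 differences from DMSO were 4.22 for BST2 (SE 0.30, adjusted p = 2.92e-06), 3.91 for IFITM1 (SE 0.20, adjusted p = 8.49e-08) and 3.59 for RSAD2 (SE 0.24, adjusted p = 1.17e-06). MX2 rose by 3.33 and MX1 by 3.22. IFITM2 rose by 0.47 (SE 0.11, adjusted p = 0.0119) and IFITM3 by 0.41 (SE 0.11, adjusted p = 0.0211). The IFITM3 call was lost when replicate 2 of siQ61K poly(dA:dT) was left out (adjusted p = 0.0731) or replicate 1 (0.0620) or 3 (0.0683) of siQ61K DMSO, and with replicate 2 of siQ61K poly(dA:dT) and replicate 3 of siQ61K DMSO both left out, neither IFITM3 (0.158) nor IFITM2 (0.108) was called. Of 12 settings other than single left-out libraries, 4 lost the IFITM3 call, that pair included. The sizes for low genes depend on the pseudocount, and with 5 in place of 1 they were 2.63 for BST2, 2.09 for RSAD2 and 1.93 for MX2.

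Under siNC the poly(dA:dT) minus DMSO differences were positive for all 7 members, and IFITM1 was the only one called, at 1.59 (SE 0.20, adjusted p = 0.00484), against 0.0747% of all genes called higher and 0.0475% called lower. The poly(dA:dT) libraries lay above the DMSO libraries without overlap for all 7, where 7.89% of all genes did so. The log2 differences of the others were 1.24 for BST2 (adjusted p = 0.200), 1.19 for RSAD2 (0.101), 1.08 for MX1 (0.0884), 0.93 for MX2 (0.349), 0.63 for IFITM3 (0.0616) and 0.39 for IFITM2 (0.298). Ratios of mean TPM order the members otherwise, with 12.6 for RSAD2 and 11.3 for MX2 against 3.15 for IFITM1. The siNC DMSO means of RSAD2 and MX2 were only 0.129 and 0.101 TPM. limma called 18 genes in all in this comparison, with 1640 at an unadjusted p below 0.05. The adjusted values of the members thus sit in a comparison with few calls anywhere. MX1 (1.54, adjusted p = 0.0419) and RSAD2 (3.06, adjusted p = 0.0319) were called with a pseudocount of 0.1, and after the GC and length correction IFITM3 (adjusted p = 0.0467) and MX1 (0.0465) were called. With the replicate block added to that correction neither was (adjusted p = 0.0795 for both).

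The interaction tests whether the responses differ, as the poly(dA:dT) minus DMSO difference under siQ61K less the one under siNC. It was called for 5 of 7 members, all positive, against 6.00% of all genes called higher and 12.1% lower. Of the genes called, 33.17% were higher, against 47.46% under median-of-ratios scaling and 67.68% after a correction for GC content and length, with 5 members called in each case. BST2 had the largest value among the members, 2.98 (SE 0.43, adjusted p = 0.00395), and its low siQ61K DMSO level enters that value. RSAD2 had 2.41 (SE 0.33, adjusted p = 0.00301), MX2 2.40 (SE 0.44, adjusted p = 0.00842), IFITM1 2.32 (SE 0.28, adjusted p = 0.00136) and MX1 2.14 (SE 0.29, adjusted p = 0.00293). On the log2(TPM + 0.1) scale the values of MX2 (1.85, adjusted p = 0.113) and RSAD2 (1.59, adjusted p = 0.136) were smaller and not called. Ratios of mean TPM, poly(dA:dT) to DMSO, were 18.5 under siQ61K and 11.3 under siNC for MX2, and 28.5 and 12.6 for RSAD2. They lay farther apart for IFITM1 (15.9 and 3.15), BST2 (47.8 and 3.08) and MX1 (12.4 and 3). After the correction for GC content and length all 5 remained called, with RSAD2 at 2.15 (adjusted p = 0.0144) and MX2 at 2.51 (adjusted p = 0.0230).

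IFITM2 (0.08, SE 0.16, adjusted p = 0.767) and IFITM3 (-0.22, SE 0.16, adjusted p = 0.353) had no called interaction, and the value of IFITM3 was 0.15 after the GC and length correction. The summed IFITM level gave 0.03 (SE 0.16, adjusted p = 0.903), with its sign depending on the setting. Within the family, a called difference between the poly(dA:dT) responses was seen for IFITM1 alone, and the shared sequence of the family bears on that split.

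The rule used for likeness was the root-mean-square difference between profiles of log2(TPM + 1) over the 12 libraries, each centred on its mean. The closest profiles to MX1 were those of RSAD2 (0.23), IFIT2 (0.30) and IFIT3 (0.32), and the closest to RSAD2 were MX1 (0.23), IFI44 (0.27) and IFIT3 (0.28). For MX2 they were RSAD2 (0.33), MX1 (0.34) and IFIT2 (0.40), and for IFITM1 they were IFI44 (0.33), OAS2 (0.35) and RSAD2 (0.40). BST2 stood farther from any other gene, with IFITM1 (0.51), DDX60 (0.57) and IFI44 (0.64) as its closest. The flatter profile of IFITM2 was closest to LY6E (0.11), PET117 (0.14) and N4BP1 (0.15), and that of IFITM3 to SHISA5 (0.17), HES4 (0.18) and UNC93B1 (0.18). The members' own spread about their means on the same scale was 0.24 for IFITM2, 0.44 for IFITM3 and 1.54 to 1.64 for the others, so a small distance is easier to reach for the flat profiles.

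Other genes that bear on the members were taken from lists. Their counts stand beside shares over all genes tested of 8.71% called higher and 12.6% lower with siQ61K in poly(dA:dT) libraries, and 16.6% and 14.8% in DMSO libraries. Of 19 tested genes of 20 other restriction factors, 6 were higher and 2 lower with siQ61K in poly(dA:dT) libraries, with a median log2 difference of 0.36. SAMHD1, which degrades deoxynucleotides, rose by 2.37 (SE 0.16, adjusted p = 7.09e-07), PLSCR1, a membrane protein that hinders viral entry, by 1.83 (adjusted p = 7.71e-07) and SHFL, an inhibitor of ribosomal frameshifting, by 1.43 (adjusted p = 1.84e-05). APOBEC3B, a cytidine deaminase, fell by 1.17 (adjusted p = 1.61e-05). With DMSO 4 were higher and 3 lower, which is near the shares over all genes. They included LGALS3BP (0.97, adjusted p = 0.000210), SHFL (0.67, adjusted p = 0.00341), TRIM5 (-0.83, adjusted p = 0.000392), a capsid-binding factor, and APOBEC3B (-0.58, adjusted p = 0.00228).

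Poly(dA:dT) against DMSO under siQ61K raised 8 of these 19 genes and lowered 2, where 6.92% of all genes rose and 18.3% fell. Under siNC limma called none of them, with 4 at an unadjusted p below 0.05. Of all genes, 0.0747% were called higher there and 0.0475% lower. PLSCR1 rose by 2.21, SAMHD1 by 2.07, SHFL by 1.25 and TRIM22, another antiviral TRIM protein, by 1.19 under siQ61K. The interaction was called for 7 of the 19, positive in 6, against 6.00% of all genes called higher and 12.1% lower. It was 1.88 for SAMHD1 (adjusted p = 0.00134), 1.62 for PLSCR1 (adjusted p = 0.000625), 1.15 for TRIM22 (adjusted p = 0.0108) and 0.92 for TRIM5 (adjusted p = 0.00933). The low siQ61K DMSO level of TRIM5 enters its value. TRIM5 means were 22.5 TPM in siQ61K DMSO and 40.7 in siNC DMSO libraries. With poly(dA:dT) they were 37.8 under siQ61K and 35.5 under siNC.

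Upstream of the members, 3 of 8 genes of the interferon receptor to ISGF3 list were higher with siQ61K at each treatment and none was called lower, with medians of 0.31 with poly(dA:dT) and 0.42 with DMSO. With poly(dA:dT) they were STAT2, a subunit of ISGF3, at 1.42 (SE 0.15, adjusted p = 2.46e-05), the transcription factor IRF1 at 0.71 (adjusted p = 0.0110) and IRF9, the DNA-binding subunit, at 0.44 (adjusted p = 0.0314). With DMSO the values were 0.64 for STAT2 (adjusted p = 0.00523), 1.05 for IRF1 (adjusted p = 0.000796) and 0.42 for IRF9 (adjusted p = 0.0304). IRF9 rose with poly(dA:dT) by 1.58 under siQ61K (adjusted p = 1.37e-05) and by 1.55 under siNC (adjusted p = 0.000139), while the interaction was called in this list for STAT2 (0.78, adjusted p = 0.0235).

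Among 4 tested feedback inhibitors of the pathway, USP18, which dampens receptor signalling and removes ISG15, was the only one called with siQ61K in poly(dA:dT) libraries (2.45, SE 0.25, adjusted p = 2.55e-05), and the median of the 4 was -0.17. Its interaction was 2.10 (adjusted p = 0.00726). SOCS3 was higher with siQ61K in DMSO libraries (0.99, adjusted p = 0.00684) and had an interaction of -1.23 (adjusted p = 0.0256).

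Of 13 modifiers and partners of the members, 3 were higher and 1 lower with siQ61K in poly(dA:dT) libraries, CMPK2 being the largest, with a median of 0.06. With poly(dA:dT) CPSF6, a host factor of HIV-1 capsids, had 0.67 (adjusted p = 0.000377), HADHB, a mitochondrial subunit to which viperin binds, 0.52 (adjusted p = 0.00261), and FDPS, a farnesyl diphosphate synthase that viperin also binds, -0.87 (adjusted p = 6.22e-05). With DMSO 3 were higher and 3 lower, with a median of -0.03, and CPSF6 had 0.49 (adjusted p = 0.00231), FDPS -0.47 (adjusted p = 0.00364) and HADHB 0.26 (adjusted p = 0.0631, not called). Counts this small were not set apart from the shares over all genes. Of 13 dynamin superfamily relatives of MX1 and MX2, 2 were higher and 1 lower with siQ61K in poly(dA:dT) libraries, with a median of -0.11. The higher ones with poly(dA:dT) were the guanylate-binding proteins GBP1 (2.03, SE 0.17, adjusted p = 5.32e-06) and GBP3 (1.37, adjusted p = 2.96e-05), which are interferon-inducible GTPases themselves, and ATL2, an atlastin of the endoplasmic reticulum, had -0.50 (adjusted p = 0.0483). With DMSO 2 others were higher, the dynamins DNM3 (0.93, adjusted p = 0.00789) and DNM1 (0.50, adjusted p = 0.0421), and 2 were lower, ATL2 (-0.76, adjusted p = 0.00463) and DNM1L, which acts in mitochondrial fission (-0.45, adjusted p = 0.0234), while GBP1 had 0.43 (adjusted p = 0.0766) and GBP3 0.15 (adjusted p = 0.463). The interaction was positive for GBP1 (1.61, adjusted p = 0.00486) and GBP3 (1.22, adjusted p = 0.00692) and negative for the dynamins DNM1 (-0.99, adjusted p = 0.0193) and DNM2 (-0.81, adjusted p = 0.0459), which pinch off endocytic vesicles. Of 7 other IFITM and dispanin family genes only PRRT2 and TMEM91 were tested, and limma called neither in any of the 5 comparisons, with TMEM91 at an unadjusted p below 0.05 in 1 of them, siQ61K against siNC with DMSO (0.83, adjusted p = 0.0925).

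**Figure D5:**
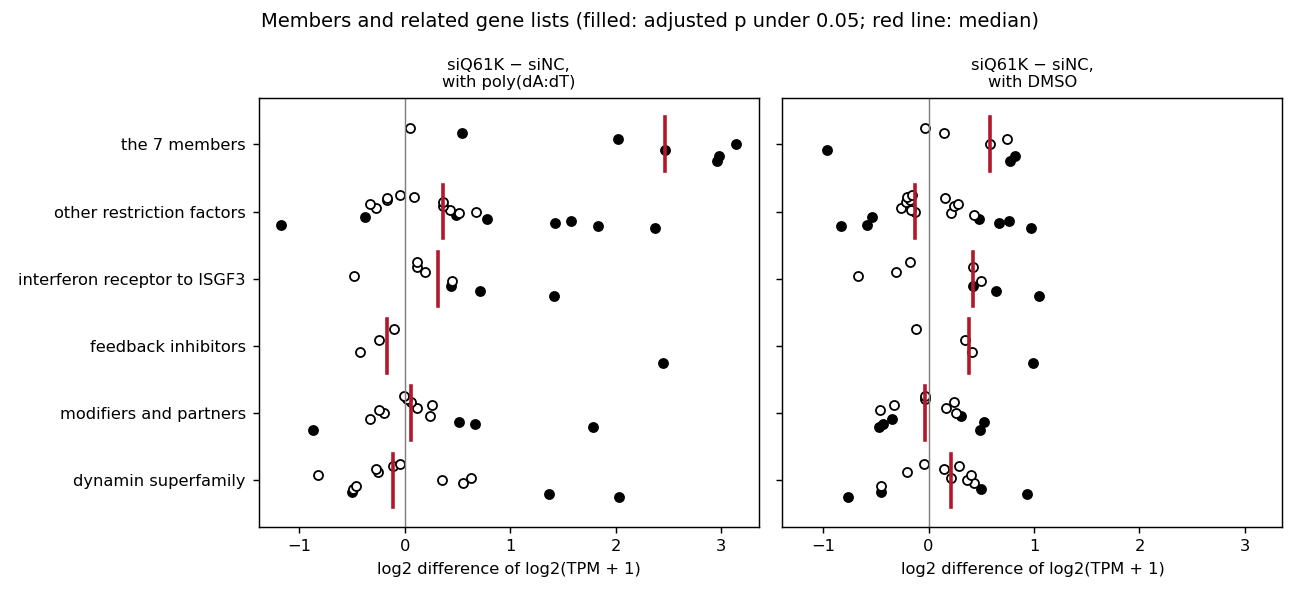
log2 differences of siQ61K minus siNC (horizontal axis, log2(TPM + 1)) for each tested gene of the members and of 5 related lists, with poly(dA:dT) at left and DMSO at right. Filled points have an adjusted p below 0.05 and red lines are medians, which were 2.47 for the members and 0.36 for the other restriction factors with poly(dA:dT), against 0.58 and -0.13 with DMSO.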

How the data were processed

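RNA-seq libraries were made from total RNA with a NEBNext Ultra kit and sequenced on an Illumina NovaSeq, per the labels' protocols. The authors deposited 1 table of TPM values per gene symbol, and the submitters' processing notes name Salmon 0.8.0 as tool and hg19 as build. How transcripts were annotated and summed per gene is not given in the sources used. Groups came from the sample titles. The columns' short names were matched to the titles by their siRNA and agent, which is an inference from names. Of 56227 rows, 984 that shared 58 symbols were left out.

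Members and gene lists were chosen with earlier results of these data known. The genes named are the 7 members, NRAS, the 3 profiles closest to each member, and up to 4 called genes per list and comparison by smallest adjusted p. CMPK2, the neighbour of RSAD2, is given in every group. All 12 libraries entered 1 fit of log2(TPM + 1) by limma 3.58.1 under R 4.3.3 (variance trend on), which was tested on simulated data. Exact permutation tests used scipy 1.17.1.

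Alternatives were other pseudocounts, filters, scalings and variance models, a lowess correction (span 0.3) for GC content and transcript length (GENCODE release 29, known for 97.13% of genes), a replicate block, and left-out libraries, among them a pair chosen from earlier results. Promoter sequences are from RefSeq (GRCh38.p14), and the files give no coordinates of their own. Protein identity between members was not computed here.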

Additional observations from a re-analysis of the deposited data

Results flagged for a closer look

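For 5 members the poly(dA:dT) responses under the 2 siRNAs differed by the test of the difference itself, the interaction in limma. The difference of responses, siQ61K minus siNC, on the log2(TPM + 1) scale was 2.32 for IFITM1, 2.98 for BST2, 2.14 for MX1, 2.40 for MX2 and 2.41 for RSAD2. It was positive for these 5 whichever of the 12 libraries was left out, with the lowest values at 2.15 for IFITM1, 2.62 for BST2, 1.96 for MX1, 2.18 for MX2 and 2.28 for RSAD2. The size depends on the scale for low genes. On the log2(TPM + 0.1) scale limma gave smaller values for MX2 (adjusted p = 0.113) and RSAD2 (adjusted p = 0.136), which were not called.

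No member's values in single libraries were tested for outliers, since every group holds 3 libraries.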

How the results depend on the processing

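Of the 5 counts of members called higher, that for siQ61K against siNC with poly(dA:dT) stayed at 6 under each alternative run, other than 5 of 5 where the IFITM genes were summed, and at 6 with any 1 library left out. With DMSO the count of 2 was 4 with a pseudocount of 0.1 and 1 with 5. The correction for GC content and length added RSAD2 to it, but not with the replicate block added to that correction. The count with DMSO ranged from 2 to 3 with 1 library left out. The 1 lower call there, BST2, became 0 with a pseudocount of 5, with no filter and without a pair of libraries (replicate 3 of siQ61K DMSO and replicate 2 of siQ61K poly(dA:dT), adjusted p = 0.0568), and ranged from 0 to 1 with 1 library left out. For poly(dA:dT) under siNC the count of 1 was 3 with a pseudocount of 0.1, 2 with a mean of at least 5 TPM, 2 with quantile normalization, 3 with the correction for GC content and length (1 with the replicate block added to it) and 0 with the IFITM genes summed, where IFITM1 is no longer tested alone, and ranged from 1 to 3 with 1 library left out. The count of 7 for poly(dA:dT) under siQ61K was 5 to 7, and 6 to 7 with 1 library left out. The interaction count of 5 was 3 with a pseudocount of 0.1.

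The summed IFITM level under siQ61K responded to poly(dA:dT) by 0.48 to 0.71 with 1 library left out, and was not called without that pair (0.54, adjusted p = 0.0789). Its response under siNC was 0.48 to 0.61 with 1 library left out, and called at 0.55 without siQ61K poly(dA:dT) replicate 1 or 3. Its interaction changed sign under quantile normalization (-0.11) and without the pair of libraries (-0.02), with -0.07 to 0.16 when 1 was left out. The interaction of IFITM3 was 0.15 after the GC and length correction, with or without the replicate block. With 1 library left out, IFITM2 differences of siQ61K minus siNC ranged from -0.04 to 0.15 with poly(dA:dT) and from -0.10 to 0.02 with DMSO, and its interaction from -0.01 to 0.18. The causes were not tested.

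Over all genes, calls in the interaction numbered 2662, and 976 to 3877 with 1 library left out, 1026 with no filter, 297 with the correction for GC content and length and 494 without the pair of libraries. For poly(dA:dT) under siQ61K they numbered 3712, and 1633 to 4622, 1250 after the correction and 144 without the pair. For siQ61K against siNC with DMSO the count was 4632, and 3040 to 4983 with 1 library left out, and under siNC it was 18, and 7 to 36.

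Replicate numbers were not taken to pair the libraries, since not every same-numbered pair correlated above 0.1. Same-numbered libraries of different groups had correlations of their deviations from -0.26 to 0.233, over 0.1 in 3 of 18 pairs, and the own number correlated best, among 3 candidates each, in 19 of 36 cases. It did so in 17 of 18 cases among the 3 groups other than siNC DMSO, where all same-numbered correlations were positive (0.0401 to 0.233), and in 2 of 18 that involve siNC DMSO, which is a hint from the data and not from the design. The replicate block added to the fit without correction changed no member's call, and gave 2957, 4436, 3433, 22 and 2243 calls over all genes in the order of the report's comparisons, beside 3144, 4632, 3712, 18 and 2662. Since TPM keeps no depth, the counting error of levels near or under 1 TPM, as for BST2, MX2 and RSAD2 with DMSO, could not be given.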
